A study of Mus musculus with 17 samples.

Results

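Zinc finger protein genes of the Zfp series were followed in the renal cortex of mice 4 h after ischemia–reperfusion injury (IRI), in animals with and without induced deletion of CCN2. The genes were taken as the rows of the deposited table whose symbol is Zfp followed by a number, Zfp36 left out because it encodes an mRNA decay factor of another kind, and whose value exceeded 0 on the log2 scale (1 read per kilobase of transcript after scaling to library size, RPKM) in all 17 labelled kidneys. Of 337 such symbols, 178 met this rule and are called the Zfp members. Another 68 were tested but were at or below 0 in at least one kidney, and 91 were below the filter on low values. The members were thus chosen by their levels in these kidneys, which are described and carry no test. A gene that fell far in 1 group could be left out by that fall, so the rule also bears on the size of the differences below. Just inside the limit lay Zfp61, Zfp101 and Zfp763, with a lowest kidney at 0.01, 0.01 and 0.05, and just outside lay Zfp87, Zfp229 and Zfp235, at −0.01, −0.03 and −0.04.

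All animals were male, 12 to 14 weeks old and on a C57Bl6/J background. They carried CCN2 Flox/Flox and ROSA26CreERT2, a Cre recombinase activated by tamoxifen and expressed from a locus that is active throughout the body. Those labelled CCN2 KO had received 4 injections of tamoxifen in corn oil and those labelled WT corn oil alone, followed by 14 days of washout, so that the drug and the deletion cannot be told apart. IRI consisted of clamping both renal pedicles for 25 min, and sham animals underwent the operation without the clamp. Cortex RNA gave 1 library per animal, from 4 with sham surgery and 4 with IRI under the WT label, and 4 with sham surgery and 5 with IRI under the CCN2 KO label. Ctgf, the gene that encodes CCN2, did not separate the genotypes in this table. It ranged from 2.65 to 4.26 in WT sham and from 2.87 to 3.92 in CCN2 KO sham, and from 3.92 to 5.02 in WT IRI and from 3.75 to 5.04 in CCN2 KO IRI (log2 RPKM, adjusted p = 0.777 and 0.525, limma). Reads from exons left after recombination would count toward it, and their part was not tested. A separate qPCR measurement of CCN2 mRNA by the study was not analysed here. The genotype below is that of the label. The titles of the kidneys begin with 32 or 33, a number whose meaning the labels do not give. Each sham group held 2 kidneys of each prefix and all 9 IRI kidneys carried prefix 33, so values within prefix 33 stand beside those of all kidneys. Pearson correlations between kidneys over the genes tested were 0.915 to 0.961 within groups and 0.856 to 0.953 between groups. Proximal tubule markers dominated every library, at a summed 18260 to 61720 RPKM, and both skeletal muscle markers were under 2.37 RPKM in sum. Both liver markers summed to 2.775 to 4.381 RPKM in WT IRI but reached 52.16 in WT sham, 41.49 in CCN2 KO sham and 46.73 in CCN2 KO IRI, and neither passed a test. Their part in the Zfp values was not tested.

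C2H2 zinc finger proteins form the largest class of transcription factors in mammals. Each finger holds a zinc ion between a pair of cysteines and a pair of histidines and reads a few bases of DNA, and fingers in a row read a longer site. Many also carry a KRAB domain, which binds the corepressor TRIM28 (KAP1). TRIM28 in turn brings the histone methyltransferase SETDB1, HP1 proteins and the NuRD complex to the bound site, which for many KRAB proteins is a retroviral or other repeat element. The name Zfp marks the fingers alone, and some Zfp proteins bind RNA, ribosomes or other proteins instead of DNA.

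The members were spread over 20 chromosomes, with 42 on chromosome 7, 20 on chromosome 17 and 18 on chromosome 8, and 73 had at least 3 other Zfp symbols within 500 kb. In the longest open reading frame of each member's GENCODE M21 transcripts, the median number of C2H2 fingers was 9 and the highest 37. No finger pattern was found in 5, namely Zfp185, Zfp330, Zfp503, Zfp703 and Zfp839. A run of the KRAB A box was found in 51 members, and in 63 with a wider pattern chosen after the first had been seen to miss known KRAB genes. Of these 63, 43 lay in the clusters of at least 3 neighbours. Zfp708, listed among KRAB genes below, matched neither pattern, so members without a match may still be KRAB genes. Members overlapped an annotated gene on the opposite strand in 64 cases and on the same strand in 35. The setting for strand in the authors' counting is not given in the sources used here, so reads of such pairs may not be fully separated. Closely related KRAB genes within a cluster also share sequence, and their values are uncertain to that extent.

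Promoter sequences are printed for 5 members that passed the test after IRI, because together they show, in capitals, 5 of the 7 motifs counted below in the member promoters. All are RefSeq promoters of build GRCm38.p6, 250 bases before to 50 bases after the start, 5′ to 3′ along the gene. Zfp692, at chr11:58306819-58307118 (+ strand), and Zfp180, at chr7:24081647-24081946 (+ strand), share ACTACAATT, the first part of a site of ZNF143, which in Zfp180 lies on the other strand. Zfp747, at chr7:127376001-127376300 (- strand), holds the E-box palindrome TCACGTGA. Zfp945, at chr17:22867085-22867384 (- strand), holds CCGGAAG, the core of ETS factor sites, and Zfp444, at chr7:6172263-6172562 (+ strand), holds GGGCGG, the GC box. Further capitals mark CCGGAAG and CCAAT on the other strand of Zfp180, CCAAT on that of Zfp747 and GGGCGG in Zfp945.
Zfp692: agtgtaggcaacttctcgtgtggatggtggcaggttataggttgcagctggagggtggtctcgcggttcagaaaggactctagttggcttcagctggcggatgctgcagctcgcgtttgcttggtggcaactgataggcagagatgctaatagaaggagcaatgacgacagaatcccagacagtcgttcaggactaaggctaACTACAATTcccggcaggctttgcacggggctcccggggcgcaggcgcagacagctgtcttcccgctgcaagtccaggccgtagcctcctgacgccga
Zfp180: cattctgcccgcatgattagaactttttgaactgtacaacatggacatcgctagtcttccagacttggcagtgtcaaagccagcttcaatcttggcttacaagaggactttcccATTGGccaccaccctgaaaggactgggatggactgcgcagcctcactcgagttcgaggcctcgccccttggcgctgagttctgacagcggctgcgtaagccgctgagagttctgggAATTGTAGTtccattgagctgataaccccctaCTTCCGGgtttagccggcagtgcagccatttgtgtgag
Zfp747: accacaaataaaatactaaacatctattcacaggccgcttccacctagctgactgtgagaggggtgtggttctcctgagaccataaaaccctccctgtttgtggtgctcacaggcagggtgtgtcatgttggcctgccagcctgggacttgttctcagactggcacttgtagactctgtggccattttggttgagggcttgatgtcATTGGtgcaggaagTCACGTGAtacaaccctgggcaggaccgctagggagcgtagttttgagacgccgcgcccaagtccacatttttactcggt
Zfp945: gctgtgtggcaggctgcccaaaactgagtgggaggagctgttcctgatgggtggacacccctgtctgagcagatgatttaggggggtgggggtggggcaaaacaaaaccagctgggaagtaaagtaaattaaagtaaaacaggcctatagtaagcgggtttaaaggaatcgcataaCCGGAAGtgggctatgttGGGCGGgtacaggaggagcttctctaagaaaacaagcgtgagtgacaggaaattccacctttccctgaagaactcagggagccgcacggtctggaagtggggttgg
Zfp444: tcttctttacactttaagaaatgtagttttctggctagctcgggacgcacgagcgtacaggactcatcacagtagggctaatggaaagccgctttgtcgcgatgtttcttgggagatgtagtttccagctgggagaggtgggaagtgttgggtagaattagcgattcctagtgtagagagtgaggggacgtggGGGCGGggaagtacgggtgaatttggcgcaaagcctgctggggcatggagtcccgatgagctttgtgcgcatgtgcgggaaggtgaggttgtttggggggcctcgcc

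RefSeq promoters were matched by symbol for 147 of the 178 members. Searched on both strands, ACTACAATT occurred in 5 of the 147 (3.4%), against 0.88% of 9094 promoters of tested genes and 0.433% of all 27025 promoters. The 5 were Zfp1, Zfp180, Zfp692, Zfp93 and Zfp933. TCACGTGA occurred in 9 (6.12%), against 2.02% and 1.01%, and these were Zfp207, Zfp292, Zfp507, Zfp512, Zfp747, Zfp758, Zfp942, Zfp943 and Zfp944. Zfp180, Zfp93 and Zfp933 of the former and Zfp747, Zfp758, Zfp942, Zfp943 and Zfp944 of the latter lay in clusters of at least 3 neighbours. Likeness among their promoters was not examined. CCGGAAG was present in 21.1% of the member promoters, 18.4% of those of tested genes and 9.12% of all. GGGCGG was present in 55.1%, 64.9% and 35.9%, and TATAAA in 5.44%, 7.06% and 14.2%, respectively. CCAAT was present in 47.6%, 37.9% and 37.9%, and TGAGTCA, the AP-1 site, in 2.72%, 3.56% and 5.17%. CCGGAAG is part of no other motif searched. Of the 5 with ACTACAATT, Zfp180 rose and Zfp692 fell in both genotypes, Zfp93 fell in WT kidneys (log2 difference −0.74, adjusted p = 0.0354), and Zfp1 and Zfp933 did not pass. Among the 9 with TCACGTGA, Zfp747 and Zfp758 rose in WT kidneys and the other 7 did not pass. These are matches of letters within 300 bases and not sites shown to be bound.

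Zfp members were expressed at low levels in the cortex. The median of their mean levels was 1.86 (log2 RPKM, which is per length of transcript), against 2.60 for all 12608 genes tested and 3.10 for the 10047 genes above 0 in all kidneys. Mean levels under 2 were found for 96 members (53.9%). The median SD within groups was 0.24 both for the members and for all genes tested, and 0.21 for the genes above 0 in all kidneys. The 5 highest members were Zfp706, Zfp598, Zfp639, Zfp503 and Zfp207. Zfp706, a small protein with a single finger that in mouse embryonic stem cells represses Klf4, had the highest mean level, 6.08. Its kidneys ranged from 5.82 to 6.31 and it passed no test. Zfp598, a ubiquitin ligase that marks collided ribosomes, followed at 4.43. Zfp639 lay at 4.35, Zfp503 at 4.31 and Zfp207, a spindle protein that binds Bub3, at 3.95, and these 4 genes overlapped in their ranges over kidneys. Members with the wider KRAB pattern had a lower median level (1.61) than the other 115 (2.22).

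The first comparison asked how the members changed with IRI in WT kidneys. After IRI 25 members were higher and 34 lower at an adjusted p under 0.05 (limma over 12608 genes, Benjamini–Hochberg), together 33.1% of the members, where 39.8% of all genes tested were called, 19.5% higher and 20.3% lower. Among 6326 genes above 0 in all kidneys with mean levels in the range of the members, the tails of that range left out, 42.8% were called. The share among the members was not above these backgrounds. Changes were also modest in size, with 10 members (5.62%) past a 2-fold difference against 13.6% of all genes tested. Of the 68 Zfp genes tested that the rule left out, 5 (7.35%) were past it, among them Zfp14 (−2.19), Zfp750 (−1.94) and Zfp937 (−1.48), which were chosen after their values were seen. The median difference of the members was −0.14 on the log2 scale and that of all genes tested −0.05. In 55 members (30.9%) the groups did not overlap, against 37.7% of all genes tested. The 5 largest decreases exceeded 2-fold in WT kidneys and were past the test in both genotypes.

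Zfp444, whose human counterpart ZNF444 carries a SCAN domain for pairing with other finger proteins, showed the largest decrease. Its level was 4.36, 4.59, 4.30 and 4.28 in WT sham and 2.92, 2.91, 3.03 and 2.82 in WT IRI (log2 RPKM, each list in the order of the kidney numbers). No IRI kidney came within 1 log2 unit of a sham kidney, and the log2 difference was −1.46 ± 0.18 (SE, adjusted p = 1.16e-05). Zfp467, which in mouse marrow stromal cells promotes fat cell formation, was 3.27, 3.58, 3.15 and 3.25 in WT sham and 2.12, 2.04, 1.90 and 1.92 in WT IRI. It fell by 1.32 ± 0.15 on the log2 scale (adjusted p = 6.88e-06), again with wide separation. Zfp579 was 4.38, 3.92, 3.80 and 4.03 in WT sham and 2.70, 2.67, 2.98 and 2.84 in WT IRI, a log2 difference of −1.24 ± 0.18 (adjusted p = 5.08e-05). Zfp692, known in human as AREBP, a repressor of gluconeogenic genes, ranged from 3.49 to 4.30 in WT sham and from 2.31 to 3.12 in WT IRI (−1.23 ± 0.23, adjusted p = 0.000428). Zfp101, a KRAB gene of chromosome 17, was at 2.07 ± 0.42 (SD, n = 4) in WT sham and 0.82 ± 0.21 in WT IRI without overlap, a log2 difference of −1.25 ± 0.25 (SE, adjusted p = 0.00102, limma). The last 3 of the 8 largest decreases whose groups did not overlap were Zfp810 (−1.06), Zfp956 (−1.04) and Zfp707 (−0.94), with adjusted p between 0.000932 and 0.00519. Zfp956 overlaps Zfp783 on the same strand.

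**Figure D1:**
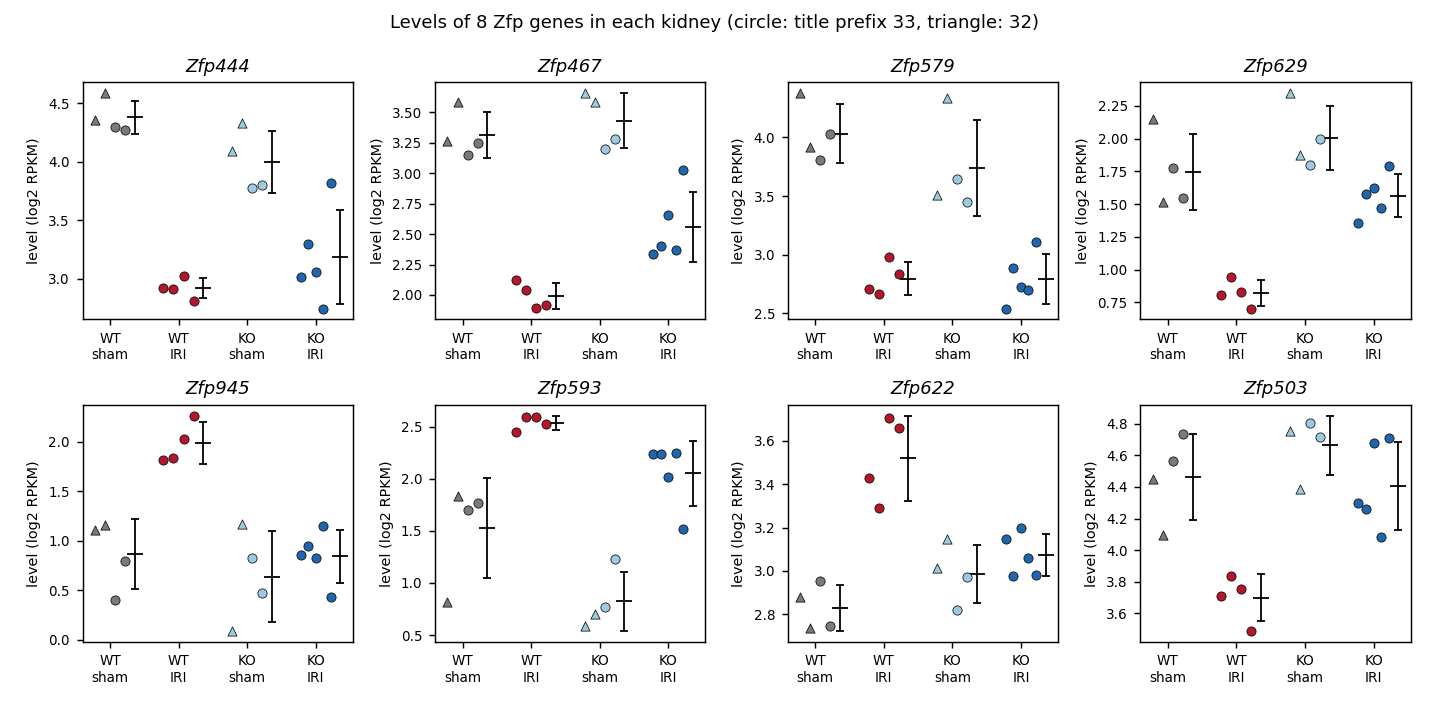
Level (log2 RPKM, vertical axes, which do not start at 0) of 8 Zfp genes in each of 17 kidneys, by group, with the group mean and SD beside the points; circles are kidneys of title prefix 33 and triangles those of prefix 32. Zfp444, Zfp467 and Zfp579 were lower after IRI in both genotypes, Zfp593 was higher in both, and Zfp945, Zfp622, Zfp503 and Zfp629 differed between the IRI groups.

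Zfp945 showed the largest increase. This gene of 18 fingers in a chromosome 17 cluster was 1.11, 1.16, 0.40 and 0.80 in WT sham and 1.82, 1.84, 2.03 and 2.26 in WT IRI. Every IRI kidney exceeded every sham kidney, with a log2 difference of 1.12 ± 0.23 (adjusted p = 0.00104). Zfp593 is a single-finger protein whose yeast counterpart Bud20 accompanies the large ribosomal subunit out of the nucleus. It was 0.82, 1.83, 1.70 and 1.76 in WT sham and 2.45, 2.59, 2.59 and 2.52 in WT IRI (1.01 ± 0.22, adjusted p = 0.00143), and it is overlapped on the opposite strand by E130218I03Rik. The sham kidney at 0.82 lay apart from the other three. Zfp948, also on chromosome 17 but not within 500 kb of Zfp945, rose by the same amount as Zfp593 (1.01 ± 0.26, adjusted p = 0.0062). Its groups overlapped, since 1 sham kidney stood at 2.33 and 1 IRI kidney at 2.31. Zfp131, a BTB domain factor, ranged from 2.60 to 3.21 in WT sham and from 3.53 to 3.85 in WT IRI (0.74 ± 0.13, adjusted p = 0.000406), and Gm41077 overlaps it on the opposite strand. Zfp146, a protein made almost wholly of fingers, rose by 0.74, Zfp954 by 0.73, Zfp367 by 0.72, Zfp703 by 0.71 and Zfp189 by 0.87, the last at an adjusted p of 0.0288 that was lost in 5 of 8 fits leaving out 1 kidney.

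Kidneys of prefix 32 had higher values for the members as a whole among the WT sham animals. The median over members of the deviation from the 17-kidney mean was 0.09 and 0.20 in those 2 kidneys, −0.07 and 0.01 in the WT sham kidneys of prefix 33, and −0.09 to −0.03 in WT IRI. Among the CCN2 KO sham kidneys this median deviation was 0.00 and 0.02 in prefix 32 and 0.01 and 0.05 in prefix 33. Without the WT sham kidney 32A2, the one at 0.20, the median WT difference was −0.06 in place of −0.14. Within prefix 33 it was 0.01. In that subset 50 members were past the test, 25 higher and 25 lower, 42 of which were among the 59, against 35.8% of all genes tested. The part of the prefix in the overall shift was not tested. Of the 16 genes named by size, 14 passed under every alternative, the exceptions being Zfp189 and Zfp703.

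**Figure D2:**
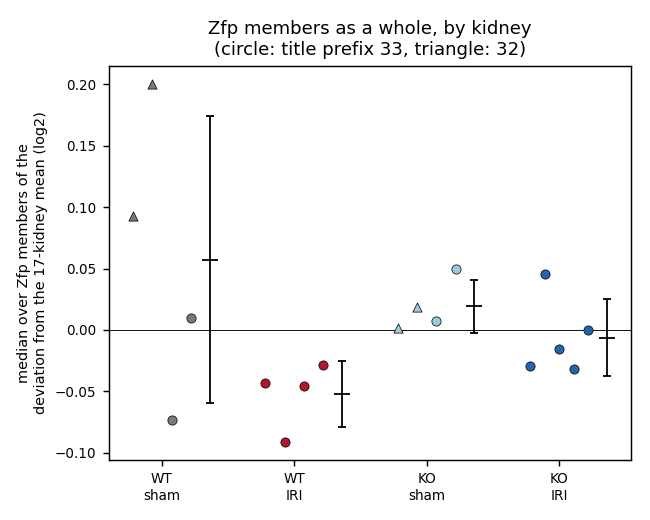
Median over the 178 Zfp members of the log2 deviation from each gene's mean over 17 kidneys (vertical axis), for each kidney by group, with group mean and SD; circles are title prefix 33 and triangles prefix 32. The highest values, 0.09 and 0.20, belong to the WT sham kidneys of prefix 32, and those of prefix 33 lie at −0.07 and 0.01.

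Marker genes of other cells moved with IRI as well, and fewer cells of a type cannot be told apart from less RNA per cell in cortex RNA. Of 4 leukocyte markers tested 3 were higher in WT IRI, the summed level of all 7 listed rising from between 10.62 and 14.56 to between 24.79 and 27.2 RPKM. Of 3 endothelial markers 2 were lower, with sums of 12.38 to 21.73 RPKM in WT sham and 6.222 to 16.87 in WT IRI. Of the distal convoluted tubule 1 of 2 markers was lower (180.3 to 266.2 RPKM in WT sham and 94.7 to 168.7 in WT IRI), as were 1 of 6 of the proximal tubule, 1 of 2 of the thick ascending limb and 1 of 3 of fibroblasts and pericytes, and of the collecting duct 1 of 2 was higher (103.9 to 157 and 191.5 to 240.2). The part of these cells in the Zfp values was not tested.

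Among members with roles outside DNA binding, changes in WT kidneys were mixed. Of 11 such genes tested for RNA, ribosome, splicing or ubiquitin functions, 5 rose and 1 fell, and their median was −0.12. All counts on these lists of few genes stand beside 19.5% higher and 20.3% lower among all genes tested. Those that rose were Zfp593, Zfp622 (0.69, adjusted p = 9.15e-05), whose yeast counterpart Rei1 acts in maturation of the large ribosomal subunit, the SUMO ligase Zfp451 (0.65), the ubiquitin ligase Zfp91 (0.32) and Zfp598 (0.30). Zfp830, which human studies place among splicing proteins, fell (−0.44, adjusted p = 0.0193). Zfp106, Zfp207, Zfp326, Zfp346 and Zfp638 did not pass, at −0.29 to −0.12. Of 13 partners of corepressor or chromatin complexes, Zfp703 (0.71) and Zfp217 (0.47), a partner of CtBP and LSD1 in human cells, rose. Zfp503 (−0.77), a developmental regulator related to Zfp703, Zfp219 (−0.64), a partner of Sox9 in mouse cartilage, and Zfp827 (−0.57), which in human cells brings NuRD to telomeres, fell. Zfp219 is overlapped on the opposite strand by Arhgef40 and others. Zfp148, Zfp281, Zfp335, Zfp410, Zfp592, Zfp609, Zfp644 and Zfp687 did not pass, at −0.26 to 0.42. Of 5 KRAB genes with a known target locus, Zfp568, which silences a placental Igf2 transcript, rose (0.68, adjusted p = 0.0117), and Zfp932, which binds endogenous retroviruses, fell (−0.77, adjusted p = 0.00123). The imprint regulator Zfp445 (−0.43, adjusted p = 0.22), the retroviral silencer Zfp809 (−0.37, adjusted p = 0.119) and Zfp708 (−0.48, adjusted p = 0.111) did not pass. Of the 10 members with other roles, Zfp367 and Zfp64 (0.48) rose and Zfp692 and Zfp395 (−0.79) fell. Zfp110, Zfp143, Zfp263, Zfp292, Zfp341 and Zfp384 did not pass, at −0.25 to 0.32.

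Of 18 cofactor and heterochromatin genes of KRAB proteins tested, 4 were higher and 5 lower in WT IRI, shares near the 19.5% and 20.3% of all genes tested. Trim28, the corepressor that KRAB binds, rose by 0.42 (adjusted p = 0.00977) and so did its relative Trim24 (0.44), Hdac2 (0.35) and Smarcad1 (0.56). Setdb1 (−0.33), Cbx5 (−0.46), which encodes HP1 alpha, Hdac1 (−0.48) and the NuRD ATPase Chd4 (−0.41) fell, as did Fam208a (−0.75), a subunit of the HUSH complex. Cbx1 (−0.06, adjusted p = 0.678) and Cbx3 (0.36, adjusted p = 0.229) did not pass. In kidneys labelled CCN2 KO, 3 were higher after IRI and none lower (14.3% and 13.2% of all genes tested), namely Smarcad1 (0.52), Dnmt1 (0.43) and Mphosph8 (0.32). Between the IRI groups, Chd4 was higher in the kidneys labelled CCN2 KO (0.41, adjusted p = 0.0317).

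Of the 63 members with a KRAB run, 14 were called in WT kidneys (22.2%, 7 higher and 7 lower), and of the other 115, 45 (39.1%, 18 higher and 27 lower). This difference was not tested, and the 115 include Zfp708 and may hold other KRAB genes that the pattern missed. With the narrower pattern the shares were 25.5% of 51 and 36.2% of 127. All shares here stand beside 39.8% of all genes tested. The median differences were −0.15 and −0.14 for the wider pattern. Members with a KRAB run also had lower levels, and the part of the level in the share was not tested. By position, 35.7% of the members on chromosome 7 were called, 35.0% on chromosome 17 and 22.2% on chromosome 8. Of the members with no overlapping gene on either strand, 36 of 96 (37.5%) were called.

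**Figure D3:**
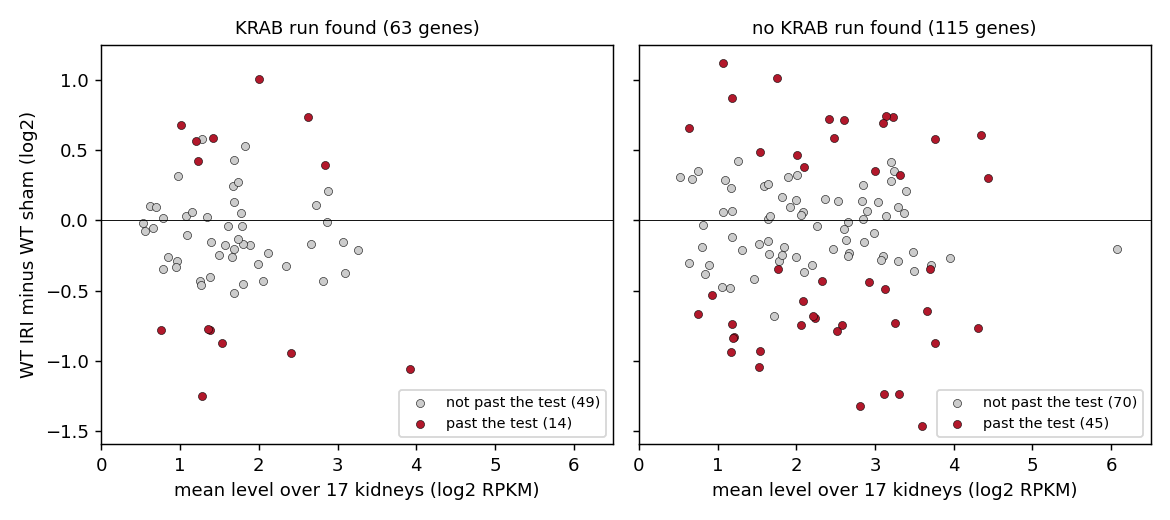
Difference between WT IRI and WT sham (log2, vertical axis) against the mean level over 17 kidneys (log2 RPKM, horizontal axis) for members with (left, 63) and without (right, 115) a KRAB run in their reading frame; red points are past an adjusted p of 0.05. In the left panel 14 points are red and in the right 45, and levels above 4 are found only in the right panel.

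The second comparison asked the same of kidneys labelled CCN2 KO. Here 10 members were higher and 14 lower after IRI, 13.5% of the members, where 27.5% of all genes tested were called, 14.3% higher and 13.2% lower, and 28% of the 6326 genes of like level. The median difference was −0.02 for the members and for all genes tested. A 2-fold difference was passed by 2 members, Zfp593 and Zfp101, 1.12% against 6.92% of all genes tested. The groups did not overlap in 28 members (15.7%), against 20.7% of all genes tested.

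Zfp593 was 0.59, 0.70, 0.77 and 1.23 in CCN2 KO sham and 2.24, 2.24, 2.02, 2.24 and 1.51 in CCN2 KO IRI. The groups did not overlap and the log2 difference was 1.23 ± 0.20 (adjusted p = 0.000498). Zfp101 was 1.37, 1.88, 2.03 and 1.95 in CCN2 KO sham and 0.34, 0.52, 0.69, 0.01 and 1.33 in CCN2 KO IRI, a difference of −1.23 ± 0.24 (adjusted p = 0.00159) in which the last IRI kidney nearly reached the lowest sham kidney. Zfp932 fell from 1.77, 1.77, 1.83 and 1.60 to 0.57, 0.87, 0.94, 0.69 and 1.12 (−0.90 ± 0.15, adjusted p = 0.000555). Zfp579 (−0.94), Zfp467 (−0.87), Zfp692 (−0.83), Zfp523 (−0.74), Zfp691 (−0.62) and Zfp950 (−0.61) were also lower without overlap. Among the increases were Zfp319 (0.71), Zfp217 (0.55), Zfp747 (0.54), Zfp131 (0.52), Zfp639 (0.50), Zfp282 (0.46) and Zfp180 (0.44), with adjusted p between 0.00346 and 0.0238. Zfp444 fell by 0.81 (adjusted p = 0.00232), with 1 IRI kidney at 3.82 inside the sham range of 3.78 to 4.33. Within prefix 33, 19 members were called, 7 higher and 12 lower, 15 of them among the 24, against 16.6% of all genes tested. Of the named genes Zfp131, Zfp282, Zfp639, Zfp692 and Zfp950 did not pass there, and Zfp319 did not pass without the CCN2 KO sham kidney 32B5 or the CCN2 KO IRI kidney 33D3, nor Zfp282 without 32B4, nor Zfp950 in 8 of 9 fits leaving out 1 kidney.

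One kidney labelled CCN2 KO IRI, 33D6, stood nearer to the sham kidneys than the others of its group. Over the 59 members called in WT kidneys, from the fit of all 17 kidneys, the median distance from the CCN2 KO sham mean in the WT direction was 0.20 in 33D6, 0.28 in 33D4, 0.37 in 33D3, 0.42 in 33D2 and 0.49 in 33D5. Kidney 33D6 was the least moved of the 5 for 31 of the 59. Without it 31 members were called in kidneys labelled CCN2 KO in place of 24, and all 24 remained. Of all genes tested 28.2% were called without it, in place of 27.5%.

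The responses of the genotypes, which share no sample, were set side by side. Of the members called, 22 passed in both, all in the same direction, 9 higher and 13 lower. They made up 37.3% of the 59 called in WT kidneys and 91.7% of the 24 called in kidneys labelled CCN2 KO, where the shares over all genes tested were 50.4% and 73.1%, with 99.6% of the shared calls in the same direction. Both differences had the same sign in 139 of 178 members (78.1%, against 77.3% of all genes tested). All 25 members that rose in WT kidneys had a positive difference in kidneys labelled CCN2 KO, and 27 of the 34 that fell had a negative one (79.4%), against 95.2% and 91.1% of all genes tested. The 25 had a median of 0.61 in WT and 0.38 in CCN2 KO kidneys, and the 34 a median of −0.77 and −0.26. A smaller difference in CCN2 KO than in WT kidneys was found for 53 of the 59 (89.8%, against 87.9% over all genes called), and a smaller one in WT than in CCN2 KO kidneys for 8 of the 24 (33.3%, against 44.4%), although members picked for passing in one genotype tend to be larger there.

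**Figure D4:**
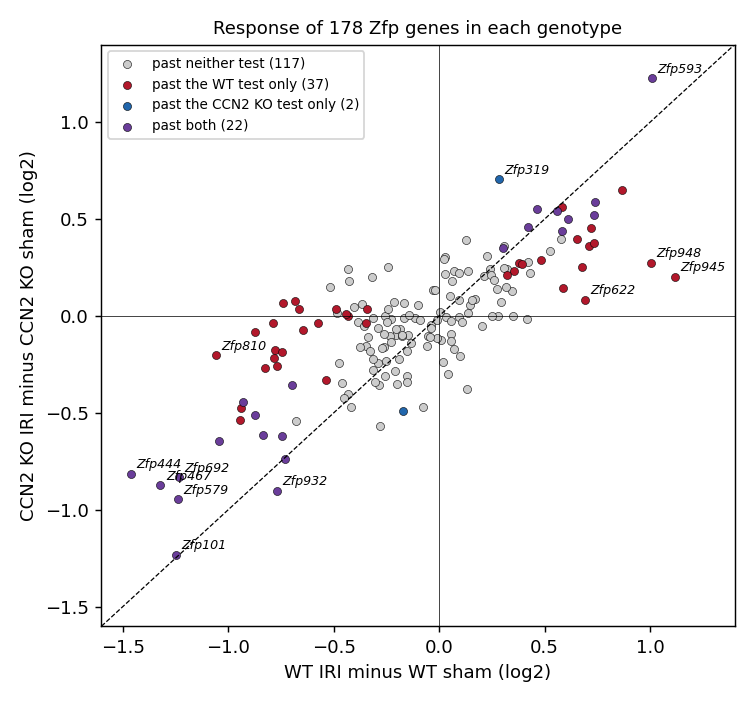
Difference after IRI in WT kidneys (log2, horizontal axis) and in kidneys labelled CCN2 KO (log2, vertical axis) for each of 178 Zfp members, coloured by the tests passed at an adjusted p of 0.05; the dashed line marks equal differences. The 22 members past both tests lie in the same quadrants, from Zfp101 and Zfp444 at the lower left to Zfp593 at the upper right.

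The difference of the responses was itself tested as an interaction. No member passed at an adjusted p under 0.05 (limma), where 23 of 12608 genes did (0.182%), and 23 members had an unadjusted p under 0.05, 12.9% against 14.9% of all genes tested. In 21 of the 23 the difference was more positive under the CCN2 KO label (11.8%, against 7.88% of all genes tested), which can also be a smaller fall. The other 2 were more negative (1.12%, against 7.06%). The lowest adjusted p was 0.098, for Zfp622 and Zfp865. Zfp622 was 2.88, 2.74, 2.95 and 2.75 in WT sham, 3.43, 3.29, 3.71 and 3.66 in WT IRI, 3.01, 3.15, 2.82 and 2.97 in CCN2 KO sham, and 3.15, 2.98, 3.20, 3.06 and 2.98 in CCN2 KO IRI. Only the WT IRI kidneys stood apart, and the interaction was −0.61 (95% confidence interval −0.91 to −0.30). Zfp865 fell in WT kidneys by 0.68 and differed by 0.08 in kidneys labelled CCN2 KO (adjusted p = 0.69), an interaction of 0.76 (0.37 to 1.15). It is overlapped by Zfp784 on the opposite strand and by 4632433K11Rik, Ccdc106 and Gm44973 on the same strand. Zfp276 is overlapped by Fanca and Vps9d1 on the opposite strand and by Gm20388 on the same strand. Zfp219 (0.57), Zfp276 (0.56) and Zfp945 (−0.92) followed with adjusted p of 0.164, 0.164 and 0.191. With weights for each kidney's variability, Zfp865 passed (adjusted p = 0.0465). Within prefix 33, 24 members had an unadjusted p under 0.05, 13 with a more positive difference under the CCN2 KO label and 11 with a more negative one (7.30% and 6.18%, against 7.96% and 7.39% of all genes tested). The median interaction of the members was −0.05 there, in place of 0.05, so the balance toward positive values was seen with the prefix 32 sham kidneys included and not without them. The 21 kept a positive sign within prefix 33 and 10 of them an unadjusted p under 0.05. All kidneys of prefix 33 had also entered the fit that picked the 21, so the kept sign is no separate support. The interaction there was −0.49 for Zfp622 and 0.63 for Zfp865.

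The third comparison set the kidneys labelled CCN2 KO IRI against WT IRI. In the former 11 members were higher and 9 lower, 11.2% of the members, where 12.3% of all genes tested were called, 7.19% higher and 5.07% lower. The median difference was 0.00, against 0.02 for all genes tested, and the groups did not overlap in 34 members (19.1% against 17.3%). All kidneys here carried prefix 33. Differences were mostly below 2-fold, Zfp945 being the only member past it (0.562%, against 5.04% of all genes tested).

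Zfp945 was 1.82, 1.84, 2.03 and 2.26 in WT IRI and 0.86, 0.95, 0.82, 1.15 and 0.43 in kidneys labelled CCN2 KO IRI. The latter lay within the range of both sham groups, and the log2 difference was −1.15 ± 0.22 (adjusted p = 0.00643). Zfp629, which has 19 fingers, was 0.81, 0.94, 0.83 and 0.70 in WT IRI and 1.36, 1.58, 1.62, 1.47 and 1.79 in CCN2 KO IRI. The groups did not overlap (0.74 ± 0.15, adjusted p = 0.00813). Zfp503 was 3.71, 3.84, 3.75 and 3.49 in WT IRI and 4.30, 4.26, 4.68, 4.08 and 4.71 in CCN2 KO IRI, again without overlap (0.71 ± 0.15, adjusted p = 0.00926). These 3 were the named members that passed under every alternative, and they were the 3 that remained when the WT IRI kidney 33C4 was left out. Zfp467 (0.56), Zfp768 (0.50), whose human counterpart binds MIR repeats, Zfp664 (0.61), Zfp651 (0.62), Zfp65 (0.62) and Zfp266 (0.48) were higher, and Zfp948 (−0.81), Zfp653 (−0.54), Zfp688 (−0.53), Zfp64 (−0.51), Zfp622 (−0.45), Zfp513 (−0.42) and Zfp384 (−0.31), known as the nuclear matrix protein NMP4, were lower. Their adjusted p values ranged from 0.013 to 0.0467. Among the role lists, Zfp106, an RNA-binding protein, was also higher (0.38, adjusted p = 0.0152).

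The count rested on single kidneys. It was 3 without the WT IRI kidney 33C4 and 6 without 33C3, 11 without 33C1, and 11, 10 and 9 without the CCN2 KO IRI kidneys 33D2, 33D4 and 33D6, with 2.78% to 8.20% of all genes tested called in those fits. With weights it was 41 of 178, beside 24.7% of all genes tested. Marker sums also differed between the IRI groups. Both markers of the thick ascending limb were higher in the kidneys labelled CCN2 KO IRI, at 511.1 to 1063 RPKM in sum against 173 to 379.9, and 1 of 3 endothelial markers was higher, at 15.77 to 22.53 against 6.222 to 16.87. Of the distal convoluted tubule 1 of 2 markers was higher (197.3 to 338.9 against 94.7 to 168.7) and of fibroblasts and pericytes 1 of 3 (10.64 to 19.96 against 3.346 to 9.917), as was 1 of 6 of the proximal tubule. Of the collecting duct 1 of 2 was lower, at 72.57 to 195.1 against 191.5 to 240.2. Their part in the Zfp differences was not tested.

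**Figure D5:**
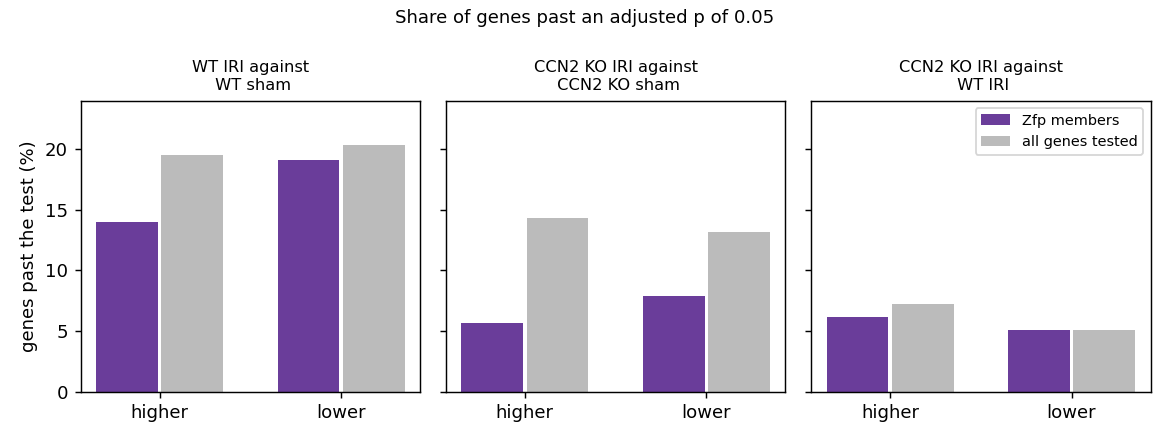
Share of genes past an adjusted p of 0.05 (percent, bars from 0), higher and lower, for the 178 Zfp members (purple) and all 12608 genes tested (grey) in the 3 comparisons with calls. The bar of the members is the shorter in each pair, by the least for lower genes in CCN2 KO IRI against WT IRI, at 5.06% and 5.07%.

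Between the sham groups no member passed, and of all genes tested 0.00% did (limma). An unadjusted p under 0.05 was found for 38 members, or 21.3%, against 13.0% of all genes tested. Of these, 10 were higher in the kidneys labelled CCN2 KO (5.62% of the members, against 6.92% of all genes tested). The other 28 were lower (15.7% of the members, against 6.09%). Counts by direction were not taken within prefix 33. The median difference was −0.04, and 0.06 within prefix 33. The lowest adjusted p belonged to Zfp641, which was 3.10, 3.13, 2.49 and 2.68 in WT sham and 1.92, 2.05, 2.12 and 2.12 in CCN2 KO sham (−0.80 ± 0.16, adjusted p = 0.15), without overlap. Zfp35 (0.48), Zfp513 (−0.49), Zfp276 (−0.47) and Zfp1 (−0.53) followed, with adjusted p from 0.211 to 0.238. Without the CCN2 KO sham kidney 32B5, 4 members passed, Zfp35, Zfp513, Zfp641 and Zfp91, with 1.08% of all genes tested. In 10 members (5.62%) the sham groups did not overlap, against 4.71% of all genes tested.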

How the data were processed

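Poly(A) RNA of 17 cortex samples was sequenced as single reads of 75 bases. According to the study's methods and the submitters' processing notes, the authors aligned reads to GRCm38 with STAR 2.4.2a, counted them per gene with HTSeq 0.6.1p1, computed RPKM with edgeR and deposited quantile-normalized log2 RPKM for 38293 genes. The deposited log2 values hold no counts, so depth is unknown and a p-value measures the spread between samples, and the quantile step forces like distributions on all columns. The table holds 13 further columns that match no labelled sample, which were not used but may have entered that step. The methods name 6 CCN2 KO IRI samples, and 5 are labelled here.

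Genes above 0 in at least 4 samples (12608) were fitted with limma 3.58.1 (R 4.3.3), 1 mean per group, prior variance with trend, two-sided, with Benjamini–Hochberg adjustment. The script was tested on simulated data. The study tested counts with DESeq2, which these values do not allow. Named were the 8 largest increases and decreases per comparison past 0.05 without overlap of groups (where fewer than 5 passed, the 5 lowest adjusted p), the 5 highest means, the 3 genes on each side of the limit, and members of the role lists. Members and lists were chosen with earlier results of these data known. Domains were searched in the longest open reading frame of GENCODE M21 transcripts, since no protein table was used, and promoters came from RefSeq. Alternatives changed the filter, pseudocount, centring, weights, prior, samples, length trend and membership, and left out each sample. Prefix 33 alone and the wider KRAB pattern were chosen after seeing the data. Figures were drawn with matplotlib 3.10.9.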

Additional observations from a re-analysis of the deposited data

Results flagged for a closer look

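Among 49 named genes and the median of the members, 200 groups of kidneys were examined for a kidney far from the rest of its group by Dixon's criterion, and 11 were found, where chance gives about 1 in 20. In WT IRI, kidney 33C4 stood apart for Zfp1 at 3.15 log2 RPKM (nearest 2.73), for Zfp131 at 3.85 (nearest 3.57) and for Zfp219 at 3.29 (nearest 3.37). In WT sham, kidney 32A2 stood apart for Zfp189 at 1.10 (nearest 0.58), 33A1 for Zfp282 at 1.33 (nearest 0.95), and 32A1 for Zfp319 at 0.16 (nearest 1.06) and for Zfp593 at 0.82 (nearest 1.70). In CCN2 KO sham, kidney 32B4 was low for Zfp282 at 0.73 (nearest 1.02), and 32B5 for Zfp319 at 0.23 (nearest 0.87) and Zfp664 at 2.81 (nearest 3.32). In CCN2 KO IRI, 33D6 was low for Zfp948 at 1.11 (nearest 2.05). In the interaction test no member passed with all kidneys weighted alike, and Zfp865 passed with sample weights.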

How the results depend on the processing

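No named gene past the test changed direction under any alternative. The named genes that passed under every alternative were 14 of 16 for WT IRI against WT sham, 10 of 16 for CCN2 KO IRI against CCN2 KO sham and 3 of 16 for CCN2 KO IRI against WT IRI. Members called in the last comparison numbered 20, 6 without a filter on low values, 41 with sample weights and 3 to 20 without 1 kidney. Among the 114 members whose lowest kidney exceeded log2 1, 38 were called in WT and 15 in CCN2 KO kidneys after IRI, from fewer genes. The shares of all genes tested were 39.8% and 27.5%. Leaving out 1 kidney gave 51 to 64 in WT, 20 to 31 in CCN2 KO, 0 to 4 between sham groups (4 without 32B5) and 0 for the interaction, which was 1 with sample weights. The median WT difference of −0.14 became −0.064 with weights and 0.0074 within prefix 33, and lay between −0.201 and −0.062 (the latter without 32A2) when 1 kidney was left out. Within prefix 33 the median was 0.063 for CCN2 KO sham against WT sham, in place of −0.041, and −0.046 for the interaction, in place of 0.05. Without 1 kidney these lay between −0.084 and 0.018, and between 0.011 and 0.127 (the latter without 33A1). The medians for CCN2 KO IRI lay between −0.03 and 0.01 against CCN2 KO sham and between −0.01 and 0.02 against WT IRI. The cause of these shifts was not tested. No paired analysis was possible because the groups share no replicate numbers. With depth unknown, low members cannot be given a counting error.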

Other observations

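Zinc finger genes outside the Zfp members were read from the same fits. Of the 68 Zfp genes tested that fell at or below 0 in some kidney, 3 were higher and 9 lower in WT IRI, and after IRI in CCN2 KO kidneys 2 were higher and 1 lower. Their median difference between the IRI groups was 0.16, against 0.00 for the members and 0.02 for all genes tested, with 1 higher and 1 lower. A fall in 1 group could place a gene among the 68, so the rule itself bears on this median. Of 36 genes of the Zbtb family, which pair fingers with a BTB domain, 9 were higher and 3 lower in WT IRI, 7 higher and 1 lower in CCN2 KO IRI, and 2 higher and 4 lower in CCN2 KO IRI against WT IRI. Of 15 genes of the Zscan and Zkscan families, which carry a SCAN domain, 2 were higher and 6 lower in WT IRI, and none higher and 5 lower in CCN2 KO IRI. The shares of all genes tested were 19.5% and 20.3% in WT, 14.3% and 13.2% in CCN2 KO kidneys, and 7.19% and 5.07% between the IRI groups.

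Zfp410 is known as an activator of Chd4 in human and mouse red cell precursors. In WT kidneys Zfp410 differed by 0.42 after IRI (adjusted p = 0.0551, limma) and Chd4 by −0.41 (adjusted p = 0.0132). Between the IRI groups Zfp410 was at −0.43 (adjusted p = 0.0796) and Chd4 at 0.41 (adjusted p = 0.0317) in the kidneys labelled CCN2 KO. This pair of genes was chosen after their values were seen.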
